A study of Danio rerio with 18 samples.

Results

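The genes described here are 9 hairy-related and Notch pathway genes of the zebrafish, namely the hairy-related genes her3, her1, her5, her7 and her9, the Delta ligand genes dla, dlc and dld, and the receptor gene notch1a. They were found by their symbols in the deposited count table and joined by gene ID to the deposited comparisons, which hold all 9 among 17135 genes. RNA enriched for new transcripts was measured in whole wild type embryos at the 256-cell and the 1024-cell stage of zygotic genome activation. The 3 conditions were s4UTP with cdk9 mRNA to overexpress CDK9 (called CDK9), s4UTP with MiR430 microRNA (called MiR430), and s4UTP alone (called untreated), each with 3 biological replicates per stage and 18 libraries in all. The modified nucleotide s4UTP, which all groups carry, enters RNA made after injection, so that labelled RNA can be captured through biotin and its labelled bases converted chemically (enriched SLAM-seq). No group received a control RNA, so a response to CDK9 or MiR430 and a response to injected RNA in general cannot be told apart.

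Notch signalling passes between touching cells. A Delta or Jagged ligand on one cell binds a Notch receptor on its neighbour, the receptor is cleaved, and its intracellular part enters the nucleus and switches on target genes together with the DNA-binding protein Rbpj. Many hairy and Enhancer-of-split-related genes (her, hes and hey) are such targets and encode basic helix-loop-helix repressors, although some are set up by other signals. In zebrafish, her1, her7, dlc and dld are known for the segmentation clock of the presomitic mesoderm, her3, her5 and her9 for holding back neurogenesis in parts of the neural plate, and dla for lateral inhibition among early neurons. These roles belong to later embryos than the stages measured here.

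All values below start from the authors' deposited comparisons of each injected group with the untreated group of its stage. Values of single libraries are not given, because the names of the 18 count columns could not be matched to the samples, and those columns were not used. The level of a gene is therefore its mean normalized count over all libraries, which the authors listed once per gene, and changes are their log2 fold changes with standard errors (SE). These fold changes appear to be shrunken towards 0, since some lie near 0 beside a small p, but no source used here names the method. A gene was said to rise or fall where its deposited adjusted p was under 0.05. The injected gene cdk9 had a log2 fold change of 6.79 (SE 0.41) at the 256-cell stage and of 5.88 (SE 0.39) at the 1024-cell stage under CDK9 by the authors' deposited table. Whether its reads came from the injected mRNA or from RNA made after injection was not tested. Pluripotency genes of the blastula were abundant in these embryos, with mean normalized counts of 362 for pou5f3, 1563 for nanog and 306 for sox19b by the authors' deposited table. These means pool all libraries, and nanog itself rose under CDK9 at the 1024-cell stage by 1.99 (SE 0.60, adjusted p = 0.00435) by the authors' deposited table. Neither pou5f3 nor sox19b was called under CDK9 at either stage. Markers of tissues that later use Notch were low, with means of 0.618 for the neuronal gene elavl3, 0.983 for the neural gene sox1a and 0.586 for the presomitic gene mespaa by the authors' deposited table. The proneural gene neurog1 had a mean of 3.56 by the authors' deposited table. Under CDK9 at the 1024-cell stage it had a log2 value of 1.33 (SE 1.73, unadjusted p = 0.0151) and no adjusted p by the authors' deposited table. For presomitic mesoderm only mespaa has a value here.

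The hairy-related genes spanned nearly the whole range of levels. Among the 9 genes, her5 was highest, with a mean normalized count of 585 by the authors' deposited table, or 441 per kb of exon. By mean it stood at place 79 of 17135 genes. The gene her3 followed with a mean of 107 (118 per kb), then her7 with 77.7 (63.7 per kb) and her1 with 68.1 (38.2 per kb) by the authors' deposited table. The receptor gene notch1a had a mean of 195 by the authors' deposited table, but its exons are long, and per kb of exon its level was 23.3, below those 4 her genes. The Delta genes dld and dlc lay lower, with means of 22.6 and 12.5 by the authors' deposited table (6.77 and 3.43 per kb). At the bottom were her9 with a mean of 1.497 and dla with 1.26 by the authors' deposited table (0.965 and 0.262 per kb), and 17.2% and 14.8% of all genes had lower means. These means pool 6 groups and carry no spread, so whether neighbours in this order differ beyond their spread was not tested. They include the CDK9 libraries, in which her3, her5, her1 and her7 rose and notch1a was not called, so the order holds for the pooled libraries and may be another in untreated embryos. In whole embryos, fewer cells that transcribe a gene and less RNA per cell cannot be told apart. The libraries are enriched for new RNA, so a level may also include RNA made before injection, whose share was not measured here.

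**Figure D1:**
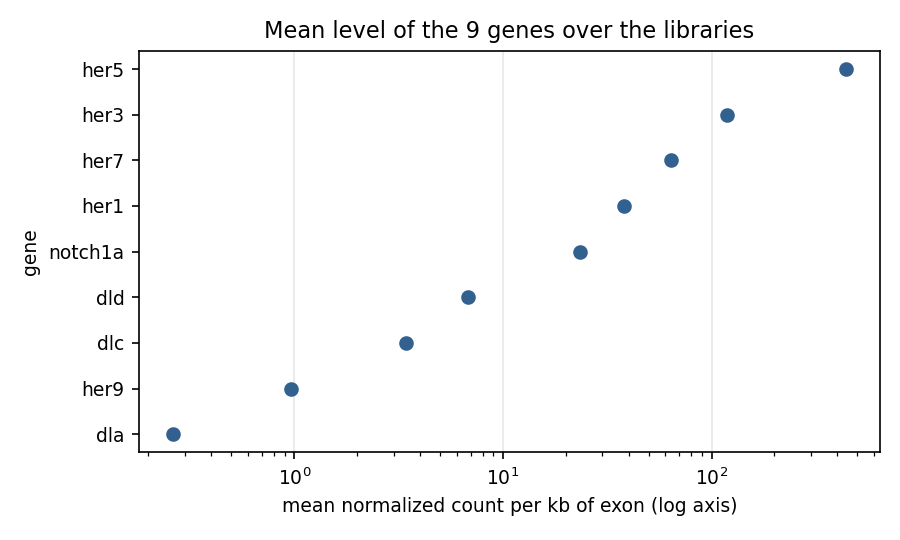
Mean normalized count per kb of exon (log axis) of each of the 9 genes, as 1 point per gene over all libraries, CDK9 libraries included. The hairy-related genes her5, her3, her7 and her1 lie highest, from 441 down to 38.2 per kb, and her9 and dla lie lowest, at 0.965 and 0.262 per kb.

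Under CDK9 at the 256-cell stage, 4 of the 9 genes rose, and all 4 were hairy-related. The gene her3, whose protein holds back neurogenesis in the neural plate, rose by 8.199 log2 units (SE 1.65, adjusted p = 8.13e-06) by the authors' deposited table. The midbrain-hindbrain boundary gene her5 rose by 6.13 (SE 1.18, adjusted p = 8.13e-06) by the authors' deposited table. The clock gene her1 rose by 5.85 (SE 1.58, adjusted p = 0.000532) and its partner her7 by 3.04 (SE 1.55, adjusted p = 0.00581) by the authors' deposited table. None of the 9 genes fell, and all 4 rises also met the stricter rule of the authors' own call column, an adjusted p under 0.01 with an absolute log2 fold change above 2, which 2.48% of tested genes met upward. Of the 9124 genes that kept an adjusted p in this comparison, 5.04% rose and 0.373% fell.

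These rises differed in size. Ordered by log2 fold change, her3 stood at place 24, her5 at 102, her1 at 116 and her7 at 256 among the 460 genes that rose, whose median was 3.61 by the authors' deposited table. The value of her7 thus lay below that median and those of the other 3 above it. Taken as plain ratios, the fold changes and the means over all libraries bound the normalized reads that the untreated 256-cell libraries can hold together. That bound was 6.54 for her3, 21.2 for her1, 150 for her5 and 170 for her7. The sizes and places of her3 and her1 therefore rest on few untreated reads. Ordered by p, her5 and her3 stood at places 44 and 45 among all tested genes by the authors' deposited table. The SE of her7 was about as large as that of her1 while its estimate was smaller, and the difference between these genes was not tested.

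The other 5 genes did not pass at the 256-cell stage. The receptor gene notch1a, well measured by its level, had a log2 value of 0.24 (SE 0.38, adjusted p = 0.661) under CDK9 by the authors' deposited table. The Delta gene dld had 0.25 (SE 0.80, adjusted p = 0.574) by the authors' deposited table. For dlc the authors' deposited table lists a log2 fold change of exactly 0 with an adjusted p of 1, and for her9 and dla exactly 0 with a p of 1 and no adjusted p. DESeq2, one of the tools in the submitters' processing notes, writes a 0 with a p of 1 where no compared library holds a read of the gene. In the authors' deposited table for this comparison 2035 genes carry that pair of values, and no gene has a p of 1 with another fold. The reads themselves were not checked. A mean above 0 for dlc, her9 and dla then comes from other libraries.

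**Figure D2:**
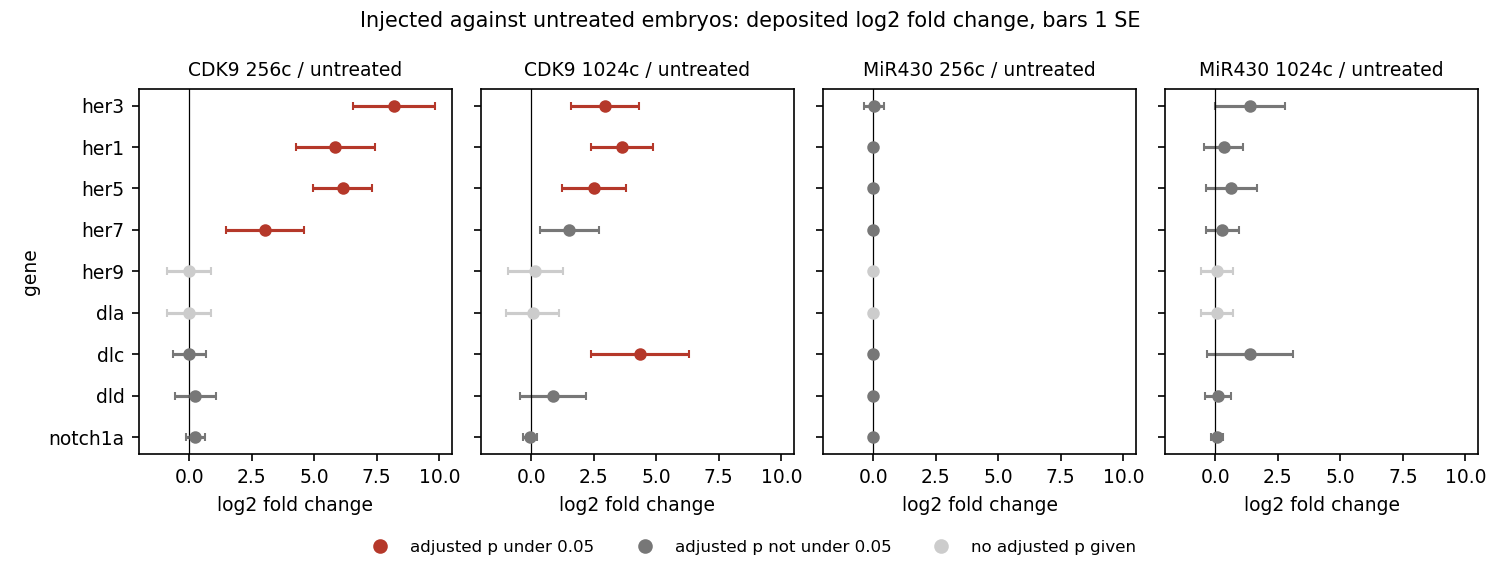
Deposited log2 fold changes of the 9 genes (points) with 1 SE (bars), 1 panel for each comparison of injected with untreated embryos and 3 libraries per group. Red points passed at an adjusted p under 0.05, dark grey points did not, and light grey points had no adjusted p. The red points are her3, her1, her5 and her7 in the first panel and her3, her1, her5 and dlc in the second.

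At the 1024-cell stage 4 of the 9 genes rose again under CDK9, with dlc in place of her7. The Delta gene dlc rose by 4.36 (SE 1.97, adjusted p = 0.00299) by the authors' deposited table and had the highest estimate of the 9 genes at this stage. The clock gene her1 rose by 3.64 (SE 1.24, adjusted p = 0.00398) by the authors' deposited table. Of the neural genes, her3 rose by 2.94 (SE 1.36, adjusted p = 0.017) and her5 by 2.50 (SE 1.28, adjusted p = 0.0292) by the authors' deposited table. Of the 11724 genes tested here 5.89% rose and 0.461% fell, and none of the 9 genes was among the falls.

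Among the 690 genes that rose at the 1024-cell stage, with a median log2 fold change of 2.73 by the authors' deposited table, dlc stood at place 54, her1 at 119, her3 at 281 and her5 at 414. The gene her5 was not called after the statistics were recentred on their median over all tested genes (adjusted p = 0.0518). The stricter rule of the authors' call column kept only her1 and dlc of the 9 genes at this stage, beside 2.65% of tested genes that met it upward.

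The remaining 5 genes had estimates from -0.04 to 1.53. The clock gene her7 had a log2 value of 1.53 (SE 1.18, adjusted p = 0.0967) by the authors' deposited table and was called when only genes with a mean of at least 50 were tested (adjusted p = 0.0488). In that setting 405 of 2390 genes rose. Its mean pools all libraries, CDK9 included, so a gene may reach it through a rise under CDK9. The Delta gene dld had 0.88 (SE 1.32, adjusted p = 0.293) and notch1a had -0.04 (SE 0.28, adjusted p = 0.946) by the authors' deposited table. The scarce genes her9 and dla had 0.16 (SE 1.09) and 0.06 (SE 1.05) with no adjusted p by the authors' deposited table, so neither could be called.

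The 2 stages were set against each other through the difference of the log2 fold changes, 256-cell minus 1024-cell, over their combined SE. The estimates of her3, her5, her1 and her7 were all higher at the 256-cell stage. Those of her3 and her1 at that stage rest on few untreated reads, by the bound given above. For her3 the difference was 5.26 (SE 2.13, 95% interval 1.08 to 9.44, unadjusted p = 0.0137), and for her5 it was 3.63 (SE 1.74, interval 0.23 to 7.04, unadjusted p = 0.0362). For dlc the exact 0 with a p of 1 at the 256-cell stage may stand for an absence of reads, so no difference is given. The differences of her1 and her7 were 2.21 (interval -1.72 to 6.15) and 1.51 (interval -2.31 to 5.34). None of the 7 genes with an adjusted p at both stages, dlc included, passed after Benjamini-Hochberg adjustment over all 9124 genes (adjusted p = 0.799 for her3 and 1 for the other 6). The outcome for dlc rests on its listed 0, so it cannot decide whether the effect on dlc changed. In the same test 0.0986% of genes had a higher log2 fold change and another 0.0986% a lower one at the 256-cell stage. A change of the CDK9 effect between stages was therefore not shown for any of these genes, and the wide intervals do not show that the stages act alike. The test takes the deposited estimates and SE as plain ones and is approximate if they are shrunken.

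**Figure D3:**
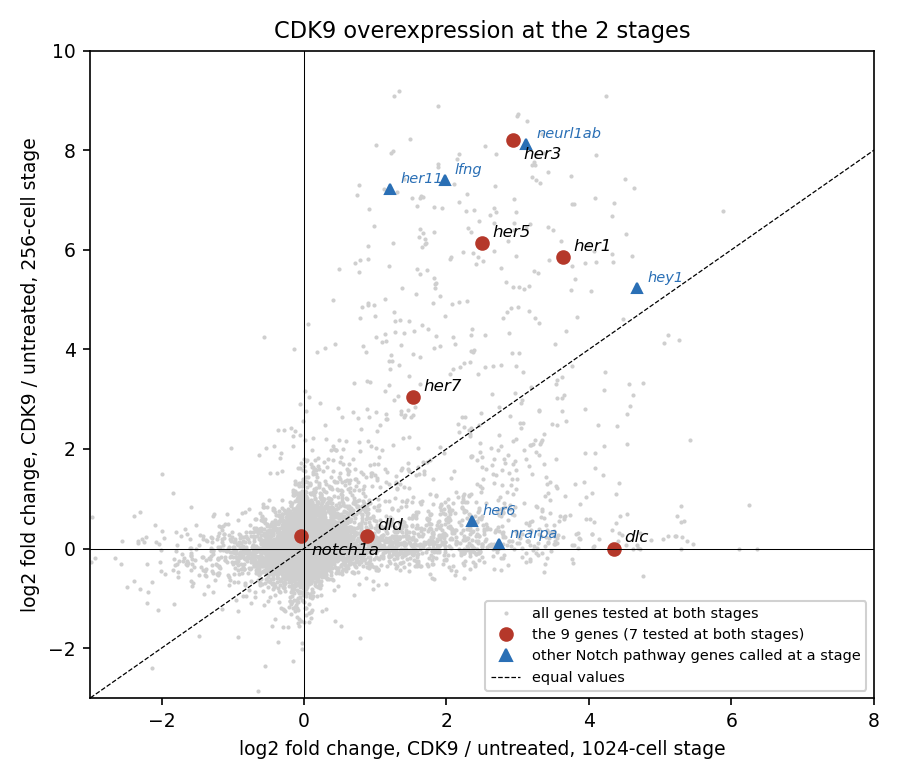
Deposited log2 fold change under CDK9 at the 1024-cell stage (horizontal) and the 256-cell stage (vertical), 1 point per gene for the 9124 genes tested at both, of which 21 lie outside the axes. Red circles are those of the 9 genes that were tested at both stages, and blue triangles are other Notch pathway genes called at a stage. The genes her3, her5, her1 and her7 lie above the dashed line of equal values, whereas dlc, listed as exactly 0 with a p of 1 at the 256-cell stage, is drawn on the horizontal axis at 4.36.

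After injection of MiR430 microRNA none of the 9 genes was called at either stage. At the 256-cell stage the median SE of all tested genes was 0.0248 and their median log2 fold change 0 by the authors' deposited table, so close to 0 that the fold changes of this comparison give no size. There her3 was the gene among the 9 with the smallest p (unadjusted p = 0.003, adjusted p = 0.806), with a log2 value of 0.03 (SE 0.40) by the authors' deposited table. It was also the only one of the 7 tested with an unadjusted p under 0.05, and it stood at place 46 of 12373 genes by p by the authors' deposited table. In that comparison 2.00% of tested genes were higher and 1.92% lower at an unadjusted p under 0.05, whereas at the adjusted threshold 0.0323% rose and 0.0242% fell. The genes her9, dla and dld have a log2 fold change of exactly 0 and a p of 1 there by the authors' deposited table. The untreated libraries, shared with the CDK9 comparison of this stage, may thus hold no read of these genes. In that case the value of dld under CDK9 at the 256-cell stage is set against no untreated read.

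Under MiR430 at the 1024-cell stage, all 9 log2 fold changes were above 0 and none passed. The median over all tested genes was also above 0, at 0.0065, by the authors' deposited table. The share of all genes above 0 was not counted. The scarce genes her9 and dla had 0.07 and 0.08 with no adjusted p by the authors' deposited table. The Delta gene dlc had 1.39 (SE 1.71, unadjusted p = 0.00109, adjusted p = 0.0719) and her3 had 1.40 (SE 1.41, unadjusted p = 0.00347, adjusted p = 0.122) by the authors' deposited table. The gene her5 had 0.64 (SE 1.03, unadjusted p = 0.0206, adjusted p = 0.295) by the authors' deposited table. These 3 of the 7 tested genes were higher at an unadjusted p under 0.05, beside 8.91% of all tested genes, while 2.18% were lower. The clock gene her1 had 0.34 (SE 0.79, adjusted p = 0.497) and her7 had 0.28 (SE 0.67, adjusted p = 0.533) by the authors' deposited table. At the adjusted threshold 1.01% of the 10748 tested genes rose and 0.0558% fell. The comparisons of CDK9 and of MiR430 at a stage share their untreated libraries, so their values for a gene are not independent, and CDK9 was not tested against MiR430 directly.

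A wider list of Notch pathway genes was drawn up by role, with earlier results of these data known, so its counts are a description only. Of its 68 genes other than the 9, 55 were measured. Under CDK9, 4 of these 55 rose and none fell at the 256-cell stage, where 32 had an adjusted p. That is 12.5% of the 32, beside the 5.04% of all tested genes that rose. The median log2 fold change of the 32 was 0.27, against 0.07 over all 9124 tested genes, by the authors' deposited table. Likewise 4 rose and none fell at the 1024-cell stage, with a median of 0.10 over 39 tested genes against 0.04 over all 11724 by the authors' deposited table. These 4 are 10.3% of the 39, beside 5.89% of all tested genes. Among the 9 genes themselves the medians of the 7 tested were 3.04 and 2.50 at the 256-cell and the 1024-cell stage by the authors' deposited table. Under MiR430 none of the 55 was called at either stage. Under CDK9, the listed genes without an adjusted p had lower means at each stage than those with one. These means pool all libraries, CDK9 included, so a gene may have been tested through its rise, which affects the shares of tested genes.

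Counted by role with the 9 genes included, most rises lay among the repressor genes. Then 16 her, hes and hey genes were measured, of which 6 rose at the 256-cell stage and 5 at the 1024-cell stage, out of 8 and 10 with an adjusted p, beside 5.04% and 5.89% of all tested genes. Here too a gene may have been tested through its rise, and scarce genes such as her9 were not tested. The 9 genes and the wider list were chosen with earlier results of these data known, so counts without the 9 are no independent check. Without the 9 genes 2 of 4 tested genes of this class rose at the 256-cell stage and 2 of 6 at the 1024-cell stage. The class of activation, processing and modifier genes, which holds none of the 9, also had 2 rises at each stage. Without the 9 genes the repressor genes thus did not hold most rises. The repressor genes that rose at the 256-cell stage beside the 9 were her11, a partner of her5 at the midbrain-hindbrain boundary, and hey1, a relative known in mammals for roles in vessels and heart. The gene hey1 rose by 5.23 (SE 2.46, adjusted p = 0.00539) at the 256-cell stage and by 4.68 (SE 1.53, adjusted p = 0.00111) at the 1024-cell stage by the authors' deposited table. By the bound used above, the untreated libraries of these stages hold at most 13.8 and 20.2 normalized reads of hey1. Under MiR430 at the 256-cell stage hey1 carries the same pair of listed values as dlc under CDK9. The untreated 256-cell libraries, which both comparisons share, may thus hold no read of hey1. The gene her6, related to mammalian Hes1, rose by 2.35 (SE 1.66, adjusted p = 0.0491) at the 1024-cell stage by the authors' deposited table. That call was lost without a filter on low counts, with recentred statistics and, since its mean is 15.4, with a minimum mean of 50.

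Among 21 genes for ligand activation, receptor processing and modification, 2 rose at each stage, out of 16 tested at the 256-cell and 18 at the 1024-cell stage (12.5% and 11.1%, beside 5.04% and 5.89% of all tested genes). The ubiquitin ligase gene neurl1ab, of the Neuralized family, which acts on Delta in Drosophila, rose by 8.13 (SE 1.55, adjusted p = 3.11e-06) at the 256-cell stage and by 3.11 (SE 1.15, adjusted p = 0.00837) at the 1024-cell stage by the authors' deposited table. By the bound used above, the untreated libraries of these stages hold at most 7.80 and 252 normalized reads of neurl1ab. The glycosyltransferase gene lfng, whose enzyme modifies Notch, had the highest mean of this class (401) and rose by 7.40 (SE 1.88, adjusted p = 0.000246) at the 256-cell stage by the authors' deposited table. By the same bound, the untreated 256-cell libraries hold at most 42.8 normalized reads of lfng. Later, at the 1024-cell stage, lfng had 1.97 (SE 1.63, adjusted p = 0.0781) by the authors' deposited table. The gene nrarpa, whose ankyrin repeat protein dampens Notch signalling, had 0.09 (SE 0.54, adjusted p = 0.886) at the 256-cell stage and rose by 2.73 (SE 1.23, adjusted p = 0.0187) at the 1024-cell stage by the authors' deposited table. The difference between stages did not pass for lfng or nrarpa (adjusted p = 1 for both).

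Too few genes of the other roles were tested to set their counts apart from the 5.04% and 5.89% of all genes that rose. The same holds for the rises among the activation, processing and modifier genes above. It also holds for the her, hes and hey genes beside the 9, of which 4 were tested at the 256-cell and 6 at the 1024-cell stage. Of 3 measured receptor genes, notch1a, notch2 and notch3, 2 were tested at each stage and neither was called. Of 13 genes of the nuclear complex and its corepressors 10 were tested at the 256-cell and 11 at the 1024-cell stage, and none was called. The most abundant of them, ncor1, had log2 fold changes of 0.14 (SE 0.40) and 0.07 (SE 0.32) at the 256-cell and the 1024-cell stage by the authors' deposited table. Of 8 measured ligand genes 3 were tested at the 256-cell stage with no call and 4 at the 1024-cell stage, where dlc was called. The most abundant ligand gene beside the 9, jag2b, had 0.87 (SE 0.65, adjusted p = 0.118) at the 256-cell and 0.07 (SE 0.36, adjusted p = 0.905) at the 1024-cell stage by the authors' deposited table. Of the 3 proneural genes none was tested at the 256-cell stage and ascl1a, the most abundant, was tested at the 1024-cell stage, where its log2 fold change was 0.43 (SE 1.04, adjusted p = 0.57) by the authors' deposited table. An unadjusted p under 0.05 with a higher value was found for 3 tested nuclear complex genes and 1 tested ligand gene at the 256-cell stage, beside 14.1% of all tested genes. At the 1024-cell stage it was found for 2 nuclear complex genes and 1 ligand gene, beside 14.0% of all tested genes, and for no tested receptor gene at either stage.

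**Figure D4:**
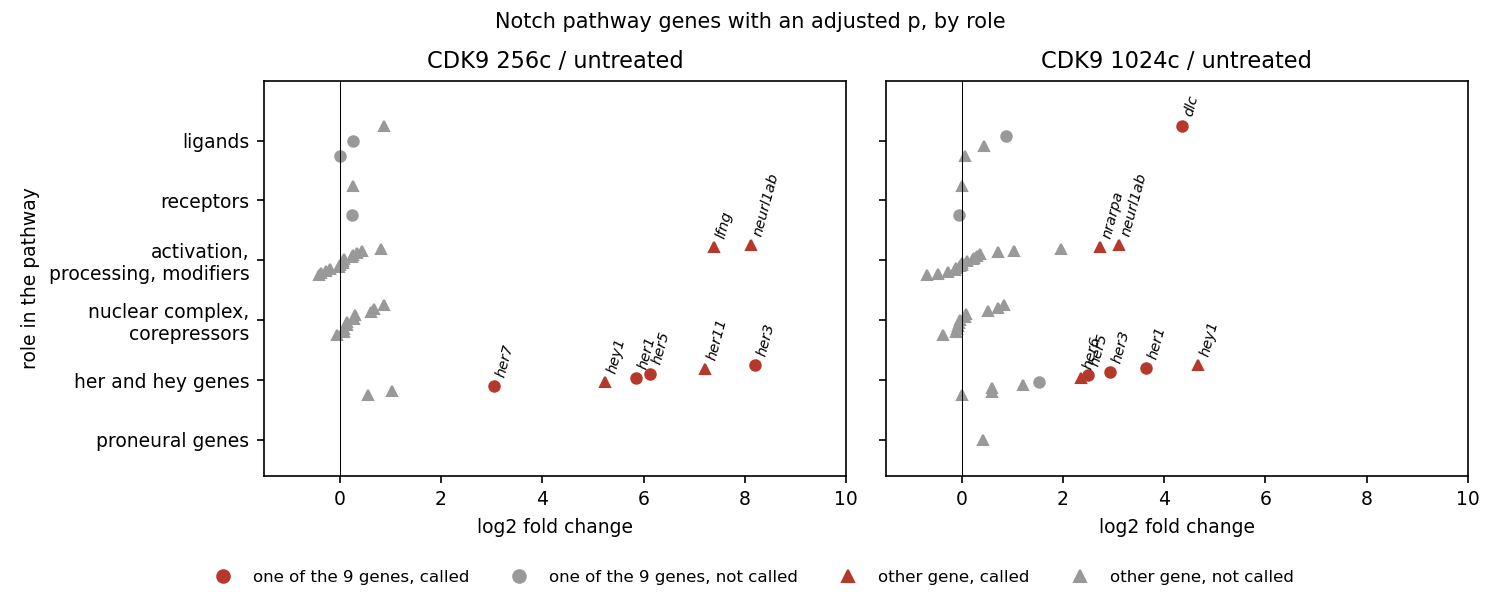
Deposited log2 fold changes under CDK9 of all Notch pathway genes with an adjusted p, in rows by role, at the 256-cell stage (left) and the 1024-cell stage (right). Circles are from the 9 genes and triangles are other genes, red where the adjusted p was under 0.05. Red symbols lie among her and hey genes and among activators and modifiers at both stages, and among ligands only for dlc at the 1024-cell stage.

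Position in the genome (GRCz11, from the deposited count table) placed 3 of the 9 genes in divergent pairs of 2 hairy-related genes. The genes her1 (chromosome 5, 68788658 to 68795063, minus strand) and her7 (chromosome 5, 68807170 to 68808485, plus strand) point away from each other with starts 12107 bases apart and no annotated gene between them. The gene her5 (chromosome 14, 30543008 to 30544666, plus strand) faces away from her11 (chromosome 14, 30538482 to 30540967, minus strand), with starts 2041 bases apart. Both genes of both pairs rose at the 256-cell stage under CDK9, with her11 at 7.22 (SE 2.51, adjusted p = 0.00135) by the authors' deposited table. By the bound used above, the untreated libraries of that stage hold at most 33.4 normalized reads of her11. Only 1 gene of each pair passed at the 1024-cell stage, her1 and her5, while her7 had the value given above and her11 had 1.21 (SE 1.53, adjusted p = 0.188) by the authors' deposited table. The gene dld also faces away from a neighbour, fam120b, with starts 4927 bases apart, and neither was called under CDK9 at either stage. At the 256-cell stage fam120b had 0.36 (adjusted p = 0.524) by the authors' deposited table.

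Among other neighbours no rise was called. Within 50 kb of the 9 genes lay 17 other measured genes, of which 9 had an adjusted p at the 256-cell stage under CDK9. Of these her11 alone rose and timm50, next to dlc, fell by 2.02 (adjusted p = 0.0202) by the authors' deposited table. None of 10 tested neighbours was called at the 1024-cell stage. The genes usp39 and mepce, which flank the her1 and her7 pair, had 0.60 and 0.78 at the 256-cell stage, with adjusted p of 0.273 and 0.147, by the authors' deposited table. The gene dla (chromosome 1, 54013457 to 54026352, plus strand) overlaps an annotated gene on the other strand that was not among the compared genes, and the other 8 overlap none.

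**Figure D5:**
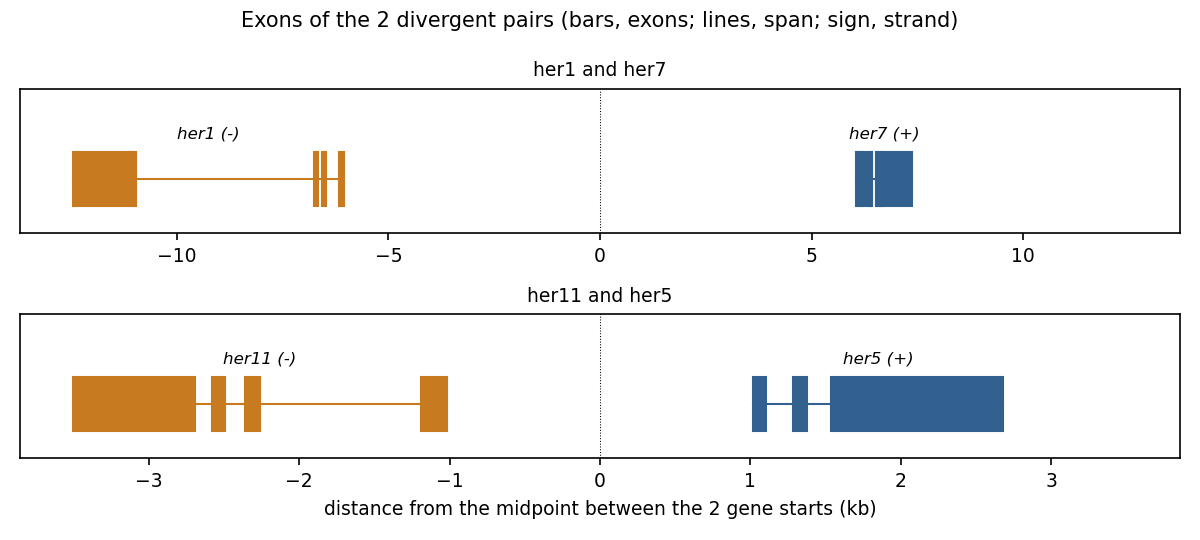
Exons (bars) and spans (lines) of the divergent pairs her1 with her7 and her11 with her5, as distance in kb from the midpoint between the starts of both genes, with the strand in brackets. The starts of her1 and her7 are 12107 bases apart and those of her11 and her5 are 2041 bases apart, and no annotated gene lies between them.

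The 9 genes differ in length. The gene her3 (chromosome 8, 46641314 to 46642556, plus strand) spans 1.24 kb, her7 1.32 kb, her5 1.66 kb, dlc (chromosome 15, 20463448 to 20468302, minus strand) 4.86 kb and her1 6.41 kb. The gene notch1a (chromosome 21, 4766244 to 4849056, minus strand) spans 82.8 kb. Of the other genes not called at either stage, her9 (chromosome 23, 23399520 to 23401305, minus strand) spans 1.79 kb, dld (chromosome 13, 6075572 to 6081803, minus strand) 6.23 kb and dla 12.9 kb. Neither her9 nor dla had an adjusted p under CDK9 at either stage.

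Of the 9 genes her5 had the smallest p, and the genes most like it were looked for by the Euclidean distance between signed z statistics over the 4 comparisons. Among 2103 other genes whose symbol holds no colon and whose mean reaches 50, the nearest were blf (distance 0.559), CR388189.6 (0.784), the GATA factor gene gata3 (0.798), acin1b (0.816) and BX649341.1 (0.882), of which CR388189.6 and BX649341.1 carry clone names. Under CDK9, blf rose by 6.44 and gata3 by 6.58 at the 256-cell stage and by 2.30 and 2.45 at the 1024-cell stage by the authors' deposited table, beside 6.13 and 2.50 for her5. By the same distance her3 was the closest to her5 among the 9 genes (1.76), her1 lay closest to her7 (1.79), and the scarce genes her9 and dla lay closest to each other (0.472). Both her9 and dla are listed at exactly 0 in both 256-cell comparisons, so part of their closeness comes from these entries. The genes blf and gata3 were picked by values that include both CDK9 comparisons, so their likeness to her5 under CDK9 follows from that choice. The 4 comparisons also share untreated libraries in pairs, so all this likeness is a description only.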

How the data were processed

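Enriched SLAM-seq libraries were made without polyA selection and with a stranded kit, per the labels' protocols. The tools named, per the submitters' processing notes, are featureCounts, DESeq2, HISAT, Trimmomatic, Picard and SAMtools, and the build is GRCz11. Their versions and settings are not given in the sources used here. What the authors deposited is a count table for 32520 genes and 4 comparisons of 17135 genes each. The 18 count columns match no sample label and were not used, so the planned count models could not be run, and depth per library is not given. Symbols, positions and exon lengths came from that table. The mean normalized count, identical in the 4 deposited tables, is a signal averaged by the authors. Log2 fold changes and their SE were deposited by the authors and appear shrunken (no source used here names the method), and p-values and adjusted p-values are deposited by the authors too.

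Own steps were counts of calls, Benjamini-Hochberg adjustment in alternatives, the stage difference, levels per kb and the bound on untreated reads. Signed z statistics came from each p and the sign of its fold change. The stage difference was tested on simulated data, drawn as unshrunken normal estimates with the deposited SE. That simulation cannot show how the test behaves on shrunken estimates. The genes and lists were chosen with earlier results of these data known. Named were the 9 genes, up to 4 called genes of the wider list per comparison, the most abundant gene per role, her11 and the 5 genes most like her5. The genes usp39, mepce, timm50 and fam120b were named after their values were seen. Of the 77 listed genes 13 were not in the comparisons. Where nothing says that replicates came from separate clutches, p-values measure the spread between these samples. Python 3.11.15, numpy 2.4.6, pandas 2.3.3, scipy 1.17.1 and matplotlib 3.10.9 were used.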

Additional observations from a re-analysis of the deposited data

How the results depend on the processing

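The counts of called genes were recomputed with Benjamini-Hochberg adjustment over every gene with a p, with a minimum mean of 50, with recentred statistics and, for the 9 genes, with the rule of the authors' own call column. At the 256-cell stage under CDK9, 4 of the 9 genes rose in each of these settings. Over all genes 355 of 16996 rose there with adjustment over every gene. With a minimum mean of 50 it was 364 of 2390, and with recentred statistics 302 of 9124. The rule of the call column was met upward by 2.48% of tested genes. At the 1024-cell stage 4 rose with adjustment over every gene and 4 with a minimum mean of 50 (her7 was called and dlc was not tested there), 3 with recentred statistics and 2 by the rule of the call column, which is stricter by construction. Over all genes 579 of 16996, 405 of 2390 and 518 of 11724 rose in the first 3 of these settings, and 2.65% of tested genes met the rule of the call column upward. The minimum mean pools all libraries, CDK9 included, so a gene may reach it through its rise. For single genes 74 recomputed results of the first 3 settings kept their side of the threshold, those under MiR430 included. The exceptions were her5 with recentred statistics and her7 with a minimum mean of 50, both at the 1024-cell stage under CDK9. The rule of the call column is not part of that tally, and by it her3 and her5 were not called at that stage. In the wider list at that stage 2 genes were called with a minimum mean of 50 (neurl1ab and lfng) against 4, because nrarpa, her6 and hey1 have lower means and were not tested there. Under MiR430 no setting called any of the 9 genes or of the wider list. The stage difference called 0 of 7 genes also through signed z statistics, with dlc again entered at its listed 0. No paired analysis was possible because the count columns carry no replicate labels. For the same reason the count models in edgeR and DESeq2 and the fits without single replicates were not run. Genes with means near 1, such as her9 and dla, had no adjusted p, and low depth and little RNA of the gene cannot be told apart for them.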
